A study of Mus musculus with 201 samples.

Results

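Protocadherins were represented by 68 of the 45037 probe sets tested, taken as those whose platform annotation lists gene symbols that all start with Pcdh. A probe set is a group of short oligonucleotides that together read a transcript. Clustered protocadherins, with symbols starting with Pcdha, Pcdhb or Pcdhg, made up 35 probe sets, and 33 read 12 genes outside the clusters. Among the clustered probe sets 6 list several alpha symbols, of which 3 list 14 symbols and 3 list 9. Another 28 read 22 beta genes and 1 reads the gamma gene Pcdhgc4. The 62 probe sets with 1 symbol covered 35 genes.

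Protocadherins are the largest group of the cadherin superfamily and are cell surface adhesion proteins of neurons and other cells. The alpha, beta and gamma genes lie in tandem, and individual neurons use varying subsets of them chosen at the level of the promoter, with a role in self-recognition of dendrites and axons. Most of the genes outside the clusters are named delta-1 or delta-2 protocadherins by their cytoplasmic domains. These are expressed in regional patterns in the brain, the hippocampus included, and take part in the formation of circuits and synapses. Pcdh12, Pcdh15 and Pcdh20 were placed in neither group here.

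RNA of pooled hippocampi was read on 201 Affymetrix M430 2.0 arrays from 100 strains of mice, most with a pool of each sex. The BXD panel comprised 68 recombinant inbred strains on 134 arrays, bred from DBA/2J and C57BL/6J, and each strain is homozygous for a mosaic of their alleles. The CXB panel, recombinant inbred strains of BALB/cByJ and C57BL/6ByJ, comprised 13 strains on 27 arrays. Also measured were the reciprocal hybrids B6D2F1 and D2B6F1 (2 strains, 6 arrays), 4 wild-derived strains (CAST/EiJ, PWD/PhJ, PWK/PhJ and WSB/EiJ) on 7 arrays and 13 classical inbred strains on 27. The classical strains were 129S1/SvImJ, A/J, AKR/J, BALB/cByJ, BALB/cJ, C3H/HeJ, C57BL/6ByJ, C57BL/6J, DBA/2J, KK/HIJ, LG/J, NOD/LtJ and NZO/HlLtJ. Females gave 101 arrays, males 99 and a mixed pool 1. Pools held 1 to 4 mice (median 3), and pools averaged 41 to 196 days of age (median 62). No group carried a treatment or an engineered allele. Nothing in the labels ties arrays of 1 strain to separate animals, and p-values cover only the spread among these pools.

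Expression was deposited as PDNN scores, which come from a model of probe binding and rise with hybridization. The base of their scale is unknown here, so differences are in PDNN units and no fold changes are given. Array means were 8.063 to 8.099 units, the share of probe sets called present was 43.3% to 55.3%, and the ratio of 3' to 5' signal of Actb, a measure of RNA integrity, was 0.9 to 4.65. Of 9 pyramidal neuron markers measured, out of 11 listed, all 9 averaged 8 units or more, and of 10 dentate granule neuron markers 9 averaged 8 units or more. For 7 arrays the header lines and the labels gave different strains, sexes or batches, among them both BXD14 arrays and PWD/PhJ replicate 1. The labels were used, and results that rest on these arrays are given without them as well.

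Of the 68 protocadherin probe sets, 24 averaged 8 units or more, 8 clustered and 16 other. Mean levels ran over 7.64 to 9.63 units for the 6 alpha probe sets, 7.22 to 8.53 for the 28 beta probe sets, 7.29 to 9.34 for the 9 delta-1 probe sets and 7.36 to 9.50 for the 16 delta-2 probe sets. The 8 probe sets of Pcdh12, Pcdh15 and Pcdh20 ran over 7.21 to 9.78 units. These are scores of different probes, so their order is not an order of transcript abundance.

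The BXD panel asks which members differ among strains that shuffle the same 2 parental genomes. Strain was tested with a moderated F-test in limma over 133 arrays and 68 strains with sex and batch as covariates, and a probe set was counted as called at a Benjamini-Hochberg adjusted p of 0.05 over all 45037 probe sets. Strain differences were called for 12 of the 68 members (17.6%), against 8.38% of all probe sets. Clustered members gave 7 of 35 and other members 5 of 33. Among probe sets that averaged 8 units or more, 6 of 24 members were called (25%), against 12% of all such probe sets. The intraclass correlation, the share of variance among arrays that lies between strains, had a median of 0.144 over the members and 0.0601 over all probe sets. In bulk tissue fewer cells of a type and less RNA per cell cannot be told apart.

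Pcdhb3 had the strongest strain effect among the members. Strain values of its probe set 1420429_at had an SD of 0.168 units, beside a residual SD of 0.0724 between arrays, with an intraclass correlation of 0.823 (limma F-test, adjusted p = 3.13e-15). The lowest strain was BXD14, fitted at 7.77, with arrays at 7.781 and 7.661. The highest was BXD76, fitted at 8.47, with arrays at 8.581 and 8.362. These strains were picked as the extremes, so the gap between their arrays is not a test, and the BXD14 headers name another strain. The call held in every alternative setting run on the BXD panel, the removal of arrays with disagreeing headers included.

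The other called clustered members varied less. Pcdhb17 (1448933_at) had an SD of strain values of 0.0978 and an intraclass correlation of 0.476 (adjusted p = 0.000598), with BXD48 lowest at 8.27 and BXD55, which had 1 array, highest at 8.69. Pcdhb16 (1441994_at) had an SD of 0.112 and an intraclass correlation of 0.430 (adjusted p = 0.00244), with BXD65b lowest at 7.77 and BXD9, which had 1 fitted array, highest at 8.35. Pcdhb9 (1422640_at) had an SD of 0.0961 and an adjusted p of 0.0044, with BXD48 lowest at 8.33 and BXD73a highest at 8.84. These extremes are of the fit to the BXD panel alone, and in the fit to all arrays the lowest strain was BXD48a for Pcdhb17 and BXD14 for Pcdhb9. Smaller spreads were called for Pcdhb7 (1449527_at, SD 0.0826, adjusted p = 0.0441), Pcdhb4 (1422951_at, SD 0.0411, adjusted p = 0.0197) and the alpha probe set 1427687_at, which lists 9 symbols (SD 0.0543, adjusted p = 0.0436). These 3 were dim, at means of 7.96, 7.24 and 7.72 units. Without a batch term Pcdhb17 (adjusted p = 0.0519), Pcdhb16 (0.28), Pcdhb7 (0.067) and the alpha probe set (0.558) were not called. Pcdhb4 was not called in the RMA scores (adjusted p = 0.386, or 0.372 without columns that best match another array) or the MAS5 scores (0.679). Without the arrays whose headers disagree, Pcdhb7 (0.0854) and the alpha probe set (0.106) were not called. Over 30 alternative settings, runs without 1 array included, Pcdhb7 lost its call in 18 (limma F-test, adjusted p up to 0.283). The alpha probe set lost its call in 21 of 30 (adjusted p up to 0.805).

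The 3 alpha probe sets that list 14 symbols, among them Pcdhac1 and Pcdhac2, were called in no comparison. Their probe sets 1420798_s_at, 1424341_s_at and 1451769_s_at averaged 9.63, 9.03 and 8.34 units. Their BXD strain values had SDs of 0.0768, 0.102 and 0.0871 units (adjusted p = 0.221, 0.505 and 0.421). They list nearly all alpha genes and do not tell them apart. The gamma gene Pcdhgc4 (1438103_at) had an SD of 0.0465 units and an adjusted p of 0.135.

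Outside the clusters Pcdh20 had the widest strain differences of the BXD panel. Probe set 1451454_at had an SD of strain values of 0.236 units and an intraclass correlation of 0.645 (adjusted p = 5.45e-08). BXD87 was lowest at 8.42, with arrays at 8.324 and 8.543. BXD48a was highest at 9.36, with arrays at 9.338 and 9.308. These strains were picked as the extremes, so the gap between their arrays is not a test. The other probe set of Pcdh20, 1424701_at, had an SD of 0.127 and an intraclass correlation of 0.398 (adjusted p = 0.00535), with BXD48a highest at 10.05. In the fit to all arrays the highest strain was BXD16 for 1451454_at (9.34) and BXD65 for 1424701_at (10.03), and the lowest for 1451454_at was BXD23 (8.43). Over all 100 strains the values of these probe sets correlated at r = 0.712. In the RMA scores, another deposited summary, neither was called in the BXD panel (adjusted p = 0.0724 and 0.168).

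The promoters of Pcdh20, Pcdh17 and Pcdh8 are shown because these genes outside the clusters gave the widest called strain differences in the BXD panel, between DBA/2J and C57BL/6J, and between BALB and C57BL/6 strains. They lie on the same chromosome, and RefSeq promoters (GRCm38.p6, 250 bases before to 50 after the start of the gene) were matched for 9 of the 12 genes outside the clusters. The Pcdh20 promoter is at chr14:88471347-88471646 on the minus strand, the Pcdh17 promoter at chr14:84443313-84443612 on the plus strand and the Pcdh8 promoter at chr14:79771263-79771562 on the minus strand. They are written 5′ to 3′, and capitals mark matches to the motifs searched on both strands, the GC box (GGGCGG) and the TATA box (TATAAA).
Pcdh20: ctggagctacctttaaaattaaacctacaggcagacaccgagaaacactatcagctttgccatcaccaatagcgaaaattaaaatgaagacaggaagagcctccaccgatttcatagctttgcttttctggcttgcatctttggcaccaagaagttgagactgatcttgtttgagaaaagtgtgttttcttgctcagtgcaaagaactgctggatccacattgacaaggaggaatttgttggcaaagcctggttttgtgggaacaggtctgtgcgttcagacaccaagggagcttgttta
Pcdh17: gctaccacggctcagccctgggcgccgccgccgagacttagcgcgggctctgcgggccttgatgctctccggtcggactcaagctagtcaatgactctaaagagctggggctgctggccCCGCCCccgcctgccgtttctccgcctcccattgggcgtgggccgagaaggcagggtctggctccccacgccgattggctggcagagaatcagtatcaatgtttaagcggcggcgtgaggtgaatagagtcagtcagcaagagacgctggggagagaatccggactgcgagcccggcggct
Pcdh8: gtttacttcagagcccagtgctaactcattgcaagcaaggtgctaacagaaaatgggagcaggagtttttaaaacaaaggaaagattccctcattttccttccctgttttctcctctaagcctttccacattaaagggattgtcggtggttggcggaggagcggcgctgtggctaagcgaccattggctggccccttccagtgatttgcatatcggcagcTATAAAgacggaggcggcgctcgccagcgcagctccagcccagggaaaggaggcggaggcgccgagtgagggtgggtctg

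The Pcdh20 promoter had a GC content of 43.7% with 4 CG dinucleotides and neither motif. The Pcdh17 promoter had 65% GC, 26 CG dinucleotides and 1 GC box, written on the other strand as CCGCCC. The Pcdh8 promoter had 54.3% GC, 14 CG dinucleotides and 1 TATA box. Over 32851 mouse promoters of the same length the medians were 52.7% GC and 7 CG dinucleotides, 35.7% held a GC box and 13.6% a TATA box. The cAMP response element (TGACGTCA) and a CTCF core motif were also searched on both strands and were in none of the 3 windows, and 1.79% and 2.44% of all promoters held them. A match is a description of letters and not a site.

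Pcdh9 and Pcdh18 were the remaining called genes outside the clusters. Pcdh9 (1429861_at), a delta-1 protocadherin, had an SD of strain values of 0.110 units (adjusted p = 0.0363), with BXD14 lowest at 9.04 and BXD62 highest at 9.57. Without the arrays whose headers disagree, BXD14 among them, its adjusted p was 0.0715, and without a batch term it was 0.0611. Pcdh18, a delta-2 protocadherin that binds the adaptor Dab1 in mouse, was called through 1422889_at (SD 0.0648, adjusted p = 0.0148) and 1422890_at (SD 0.0477, adjusted p = 0.0485). Both Pcdh18 probe sets were dim, and their calls were lost without a batch term (adjusted p = 0.0779 and 0.0785). Over 30 alternative settings, runs without 1 array included, 1422890_at lost its call in 26 (limma F-test, adjusted p up to 0.239). Probe set 1422889_at lost its call in 2 of 30 (adjusted p up to 0.711).

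The other delta-1 and delta-2 genes, and Pcdh15 and Pcdh12, were not called in the BXD panel, each described through its brightest probe set. Pcdh11x (1436449_at), an X-linked delta-1 protocadherin, was just outside the threshold with strain values of 7.77 in BXD65 to 8.30 in BXD44 (adjusted p = 0.0528). Pcdh1 (1452294_at) had an SD of 0.0948 (adjusted p = 0.4), and Pcdh7 (1456214_at) had an SD of 0.118 but an intraclass correlation of only 0.0346 (adjusted p = 0.631). Among delta-2 genes, Pcdh8 (1447825_x_at), induced by neuronal activity and known as arcadlin in rat, had an SD of 0.118 (adjusted p = 0.429). Pcdh10 (1430667_at) had an SD of 0.0844 (adjusted p = 0.675), and Pcdh17 (1453070_at), which acts at synapses, had an SD of 0.105 (adjusted p = 0.194). Pcdh19 (1437360_at), the X-linked gene of an epilepsy that mainly affects heterozygous females, had an SD of 0.107 (adjusted p = 0.288). Pcdh15 (1444317_at), a component of the tip links of hair cells, had an SD of 0.0792 (adjusted p = 0.213), and Pcdh12 (1440023_at), a protocadherin of endothelial cells, had an SD of 0.0443 (adjusted p = 0.615). A p above the threshold does not show that strains were alike for these genes.

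**Figure D1:**
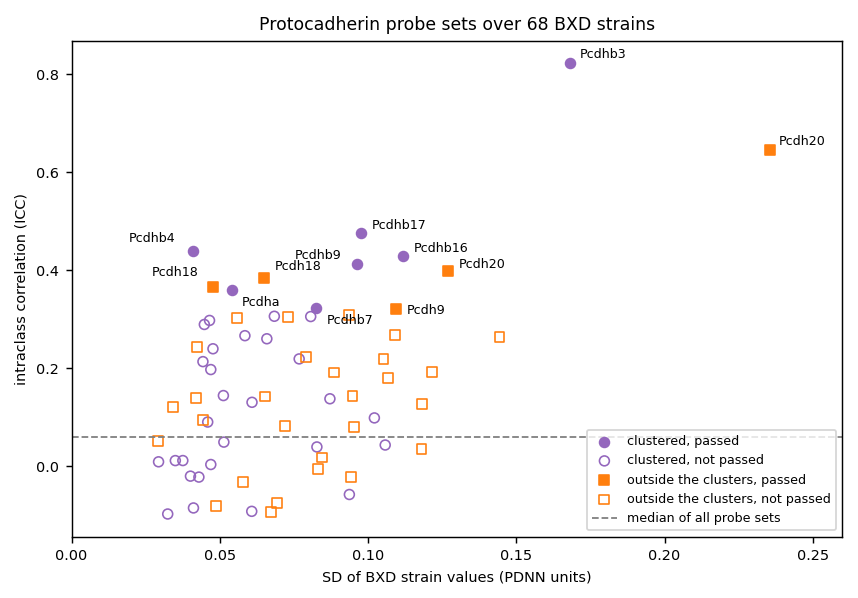
The 68 protocadherin probe sets are plotted by the SD of their fitted BXD strain values (PDNN units, x axis) and the intraclass correlation (y axis), with clustered and other members marked apart. Pcdhb3 stands highest, at an intraclass correlation of 0.823, and Pcdh20 1451454_at has the widest SD, 0.236 units.

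**Figure D2:**
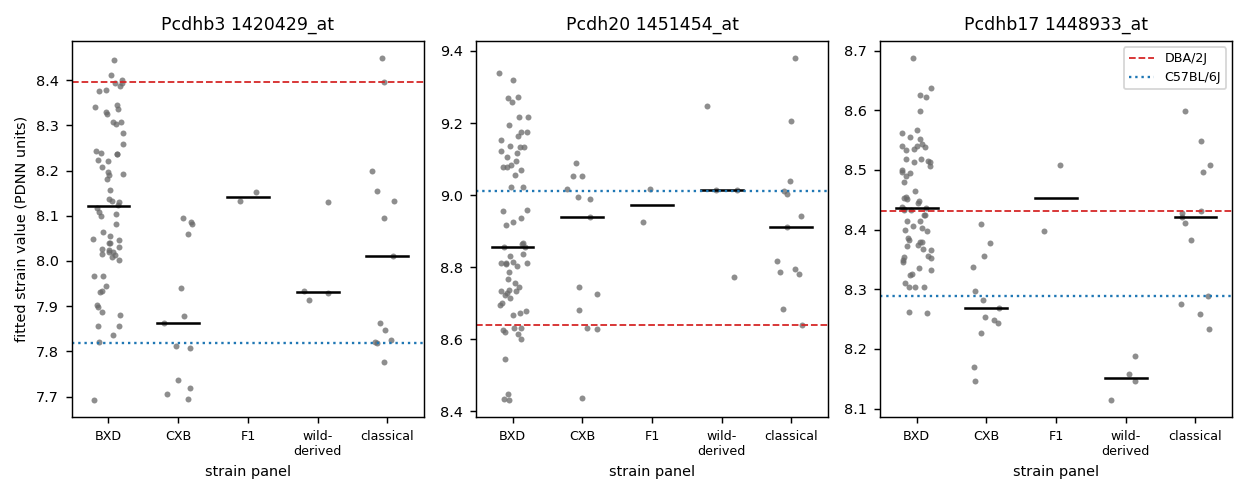
Each point is the fitted value of 1 strain (PDNN units, y axis, from the model over all arrays) in the 5 strain panels (x axis) for the 3 members with the highest intraclass correlation in the BXD panel, and black bars are panel medians. Dashed and dotted lines mark DBA/2J and C57BL/6J. Most BXD strains lie between these lines for Pcdhb3, many lie outside them for Pcdh20, and the wild-derived strains have the lowest median for Pcdhb17.

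Tissue makeup and array quality moved with some of these members. Over 100 strain values Pcdhb17 correlated at r = 0.581 with the mean of the astrocyte markers (10 of 10 measured) and at r = 0.539 with that of the endothelial markers (9 of 9), and Pcdhb9 at r = 0.562 and 0.501. Pcdhb3 correlated with none of the 12 marker lists at an r above 0.292. Over arrays, after strain was removed, the share of present calls correlated at r = 0.618 with Pcdhb17, 0.581 with Pcdh20 1451454_at and 0.526 with Pcdhb3. All of these values come from the same arrays, and their part in the strain differences was not tested.

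In the CXB panel Pcdhb3 alone was called, 1 of 68 members (1.47%) against 1.09% of all probe sets, and 3 members had an unadjusted p under 0.05, against 7.98% of all probe sets. Of the 24 brighter members 1 was called, against 1.81% of all brighter probe sets. Strain values of Pcdhb3 had an SD of 0.144 units and an intraclass correlation of 0.751 (limma F-test over 27 arrays and 13 strains, adjusted p = 0.0441). CXB1 was lowest at 7.76, with arrays at 7.635 and 7.636. CXB2 was highest at 8.15, with arrays at 8.13 and 7.915, and fitted values are adjusted for sex and batch. In the fit to all arrays the highest CXB strain was CXB13 (8.095). CXB1 and CXB2 were picked as the extremes, so the gap between their arrays is not a test. The call was near the threshold: leaving out 1 array ended it for 16 of the 20 arrays tried, with adjusted p-values up to 0.123, and among the other settings that touch the CXB arrays it was kept with 4 components as covariates (adjusted p = 0.00155) and lost in the rest. Pcdh9 (1429861_at) came next with an SD of 0.126 units (adjusted p = 0.0857), CXB10 lowest at 9.12 and CXB2 highest at 9.59. In the fit to all arrays the lowest CXB strain for this probe set was CXB11 (9.177).

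DBA/2J and C57BL/6J are the parents of the BXD panel. Their arrays, 2 of DBA/2J and 3 of C57BL/6J, were compared in a model of all arrays with strain, sex and batch. Of the 68 members 10 were called (14.7%), against 7.24% of all probe sets. Higher values in DBA/2J were called for 9 of them and a lower value for 1, against 4.61% and 2.63% of all probe sets. The called members were 3 clustered and 7 other probe sets, and 20 members had an unadjusted p under 0.05, against 17.3% of all. Of the 24 brighter members 5 were called, against 10.3% of all brighter probe sets. The arrays did not overlap for any of the 10, as for 24.3% of all probe sets. Over all 68 members the median difference was 0.0334 units, against -0.0167 over all probe sets.

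Pcdh17 had the largest difference. Probe set 1436920_at read 9.159 and 9.002 units in DBA/2J, against 8.422, 8.403 and 8.278 in C57BL/6J. Both DBA/2J arrays were well above all C57BL/6J arrays. The fitted difference was 0.767 ± 0.112 units (SE, limma, adjusted p = 2.62e-07), and it was called in every alternative run, with values on the PDNN scale of 0.414 to 0.947. The brighter Pcdh17 probe set, 1453070_at, read 9.784 and 9.545 units in DBA/2J, against 9.293, 9.243 and 9.061 in C57BL/6J, a difference of 0.418 ± 0.112 units (adjusted p = 0.00836). This call was lost without DBA/2J replicate 1 (adjusted p = 0.205) and without C57BL/6J replicate 3 (0.0926). Over 100 strains the values of these Pcdh17 probe sets correlated at only r = 0.263, and within strains at r = 0.562.

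Pcdhb3 read 8.444 and 8.465 units in DBA/2J, against 7.884, 7.844 and 7.787 in C57BL/6J. The groups were separated by far more than the spread within either. The difference was 0.577 ± 0.0854 units (adjusted p = 3.66e-07). It was called in every alternative but the RMA scores (adjusted p = 0.297), where all 3 columns headed C57BL/6J best matched arrays of another strain. In the F1 hybrids Pcdhb3 read 8.213, 7.959 and 8.217 units in B6D2F1, where the arrays of replicates 2 and 3 come from the same RNA, and 8.193, 8.309 and 8.104 in D2B6F1. Every hybrid array lay between the arrays of the parents, among them D2B6F1 replicate 1, whose header names another strain. The fitted values were 8.13 in B6D2F1 and 8.15 in D2B6F1, beside 8.40 in DBA/2J and 7.82 in C57BL/6J. Of the BXD strains, 64 of 68 lay between the parents, 1 lay below both and 3 above both. For Pcdh10 1442565_at, which was not called in the BXD panel, 64 of 68 lay between the parents as well. The shares of all probe sets with such hybrid and BXD values were not computed, so these places are descriptions.

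Pcdhb21 was higher in DBA/2J through both of its probe sets. Probe set 1420422_at read 7.984 and 8.18 units in DBA/2J, against 7.638, 7.482 and 7.469 in C57BL/6J, a difference of 0.675 ± 0.126 units (adjusted p = 6.91e-05). Probe set 1438106_at read 7.786 and 7.603 units in DBA/2J, against 7.492, 7.372 and 7.457 in C57BL/6J, a difference of 0.276 ± 0.0695 units (adjusted p = 0.00447). The groups did not overlap for either, but both probe sets are dim and their values over strains correlated at only r = 0.38. The call of 1438106_at was lost without DBA/2J replicate 1 (adjusted p = 0.436).

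The remaining calls were of delta-2 genes and Pcdh15, nearer the threshold. Pcdh19 (1437360_at) read 9.667 and 9.706 units in DBA/2J, against 9.374, 9.443 and 9.248 in C57BL/6J, a difference of 0.376 ± 0.123 units (adjusted p = 0.0429). Its probe set 1455145_at differed by 0.269 ± 0.0884 units (adjusted p = 0.0436), and 1444422_at, at 0.192 units, was not called. Pcdh10 (1444301_at) differed by 0.35 units (adjusted p = 0.0338) and Pcdh15 (1442326_at) by 0.182 units (adjusted p = 0.015). Both probe sets were dim, at means of 7.89 and 7.29 units, and no other probe set of these genes was called. The others differed by -0.0212 (1421311_at) to 0.285 units (1442565_at) for Pcdh10. For Pcdh15 they differed by 0.0202 (1444317_at) and -0.0145 units (1421503_at). Pcdh18 (1422889_at) was the one member lower in DBA/2J, at 7.624 and 7.756 units, against 7.986, 7.792 and 7.912 in C57BL/6J, a difference of -0.208 units (adjusted p = 0.0372). Its arrays came close to each other without overlap. The other Pcdh18 probe sets differed by -0.0377 (1422890_at) and -0.00934 units (1430427_a_at) and were not called.

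**Figure D3:**
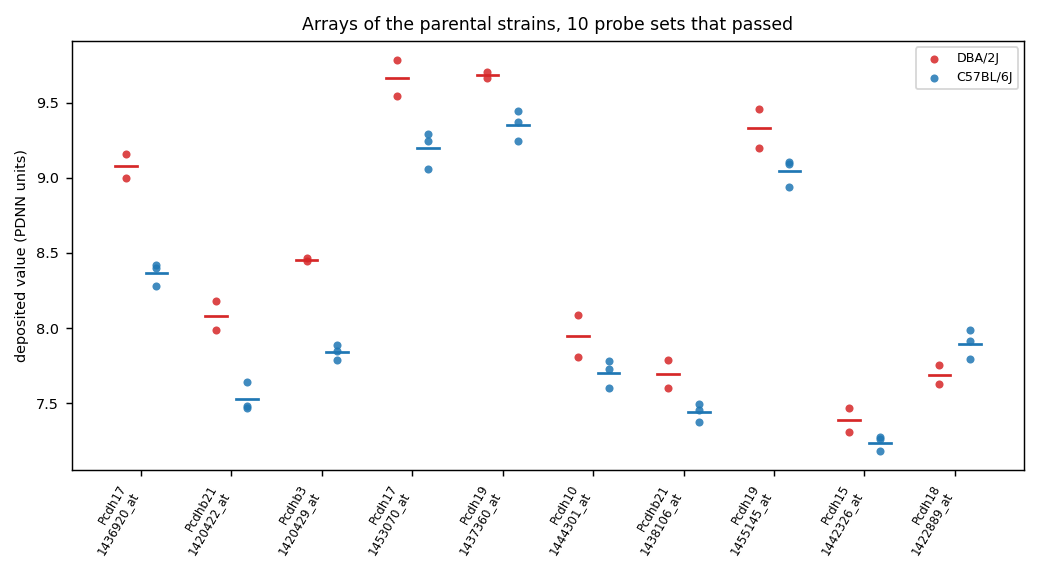
Deposited values (PDNN units, y axis) of the 2 DBA/2J arrays and the 3 C57BL/6J arrays are shown for the 10 called protocadherin probe sets (x axis), and horizontal bars are group means. The DBA/2J points lie above all C57BL/6J points for 9 probe sets and below them for Pcdh18.

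The arrays of the parents also differed in sex, batch and tissue makeup. Both DBA/2J arrays were of females, and C57BL/6J had 1 array of females and 2 of males. In the 1 batch that held both strains, with 1 array of each, all 10 called members differed in the same direction as in the model. The arrays of the strains did not overlap for any of these 10, so this direction was fixed in advance and is no check on batch. Without DBA/2J replicate 1, 5 members were called, and without C57BL/6J replicate 3, 6 were. Of 11 oligodendrocyte markers 8 were called lower in DBA/2J, with a median difference of -0.503 units, and their mean was 9.104 to 9.249 units on the DBA/2J arrays and 9.426 to 9.961 on the C57BL/6J arrays. The part of these cells in the protocadherin differences was not tested.

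The DBA/2J and C57BL/6J arrays also stood apart on a component of the variation within BXD strains that was looked at after seeing the data. Scores on the third component were 5.222 and 7.359 in DBA/2J, against -6.413, -11.98 and -15.45 in C57BL/6J. With 4 such components as covariates 6 members were called, 4 of them among the 10. These were Pcdhb3 (0.546 units, adjusted p = 1.12e-11), Pcdh17 1436920_at (0.414 units, adjusted p = 0.000677), Pcdhb21 1438106_at (0.254 units, adjusted p = 0.0201) and Pcdh18 (-0.156 units, adjusted p = 0.0486). The difference of Pcdh10 1444301_at was then 0.023 units (adjusted p = 0.94), that of Pcdh17 1453070_at 0.07 units (0.762) and that of Pcdhb21 1420422_at 0.233 units (0.0665).

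The BXD strains were also set against their parents. For Pcdh17 1436920_at, fitted at 9.12 in DBA/2J and 8.36 in C57BL/6J, and Pcdhb21 1420422_at, fitted at 8.21 in DBA/2J and 7.54 in C57BL/6J, all 68 BXD strains lay between the parents. This held for 2 of the 68 members and for 0.957% of all probe sets. Neither of these probe sets was called in the BXD panel (adjusted p = 0.0972 for Pcdh17 1436920_at and 0.619 for Pcdhb21 1420422_at). Pcdh20 1451454_at was fitted at 8.64 in DBA/2J and 9.01 in C57BL/6J (difference -0.372 ± 0.162 units, adjusted p = 0.183), and 32 BXD strains lay between the parents, 10 below both and 26 above both.

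BALB/cJ and BALB/cByJ were compared with C57BL/6J and C57BL/6ByJ, the strain families behind the CXB panel. The C57BL/6J arrays are shared with the comparison above, so the results of both are not independent. Of the 68 members 6 were called (8.82%), against 5.12% of all probe sets, 3 clustered and 3 other. Higher values in BALB were called for 5 and a lower value for 1, against 3% and 2.12% of all probe sets, and 20 members had an unadjusted p under 0.05, against 18.9% of all. Of the 24 brighter members 3 were called, against 7.63% of all brighter probe sets. The arrays did not overlap for 5 of the 6, as for 5.08% of all probe sets.

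Pcdh8 was higher in the BALB strains through both of its probe sets. Probe set 1447825_x_at read 9.858, 9.722 and 9.589 units in BALB/cJ and 9.601 in BALB/cByJ, against 9.475, 9.437 and 9.025 in C57BL/6J and 9.38 and 9.298 in C57BL/6ByJ. Every BALB array lay above every C57BL/6 array. The fitted difference was 0.342 ± 0.105 units (adjusted p = 0.0353), and 1417051_at gave 0.329 ± 0.104 units (adjusted p = 0.0438). These probe sets correlated at r = 0.961 over 100 strains. Both correlated with the mean of the 9 pyramidal neuron markers (r = 0.623 and 0.631), which was 9.437 to 9.709 units on the BALB arrays and 9.337 to 9.602 on the C57BL/6 arrays. Its part in the Pcdh8 difference was not tested.

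The other called members were Pcdhb21, Pcdh19 and Pcdhb4. Pcdhb21 1438106_at was higher in BALB by 0.184 units (adjusted p = 0.0294) with no overlap of arrays, and Pcdhb21 1420422_at by 0.310 units (adjusted p = 0.0489) with overlap, since C57BL/6ByJ replicate 1 read 7.993 units. Pcdh19 1455145_at was higher by 0.219 units (adjusted p = 0.0459). Pcdhb4 1422951_at was lower, at 7.154 to 7.189 units on the BALB arrays and 7.242 to 7.312 on the C57BL/6 arrays (difference -0.0986 units, adjusted p = 0.0361). Both Pcdhb21 probe sets and Pcdh19 1455145_at were also higher in DBA/2J than in C57BL/6J.

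These calls rested on single arrays. No member was called without C57BL/6J replicate 3 (limma, smallest adjusted p = 0.0626 among the 6) or without BALB/cJ replicate 1 (smallest adjusted p = 0.064 among the 6), and 11 were called without the only BALB/cByJ array, 3 of them among the 6. BALB/cJ replicates 1 and 2 had RMA outlier shares of 0.12 and 0.1, and without arrays at 0.1 or more 2 members were called. The Actb ratios of these arrays were 3.3 and 3.1, beside 1.26 in BALB/cJ replicate 3 and 1.13 in BALB/cByJ, against 1.14 to 1.75 on the C57BL/6 arrays. Over 199 array columns this ratio correlated at r = 0.477 with Pcdh8 1447825_x_at and 0.509 with Pcdh19 1455145_at, which both read highest on BALB/cJ replicates 1 and 2 in this comparison. Its part in the differences was not tested. Within the 3 batches that held both families, all 6 differences had the direction of the model in batches 6 and 7 and 5 of 6 had it in batch 5, where Pcdhb21 1420422_at differed by -0.0695 units. For the 5 members whose arrays did not overlap this direction was fixed in advance. Only Pcdhb21 1420422_at could have differed, so these counts are no check on batch.

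The BALB substrains are given apart for Pcdhb3. It read 8.431, 8.242 and 8.04 units in BALB/cJ, against 7.784 in BALB/cByJ, and 7.799 and 7.968 in C57BL/6ByJ. All BALB/cJ arrays lay above the BALB/cByJ array, which is a single sample in a batch without BALB/cJ, so this difference was not tested. The share of all probe sets with such an order was not computed. BALB/cJ replicates 1 and 2, which read highest, had Actb ratios of 3.3 and 3.1. This ratio correlated at r = 0.378 with Pcdhb3 over arrays after strain was removed, and its part in the difference was not tested. The family comparison of Pcdhb3 gave 0.154 ± 0.0674 units (adjusted p = 0.187). BALB/cByJ, not BALB/cJ, is a parent of the CXB strains.

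The 4 wild-derived strains were compared with the 13 classical strains in a second limma fit with 1 fitted value a strain. Of the 68 members 4 were called (5.88%), against 3.9% of all probe sets, 2 higher and 2 lower in the wild-derived strains (1.92% and 1.99% of all probe sets), and 16 had an unadjusted p under 0.05, against 26.9% of all probe sets. Of the 24 brighter members 1 was called, against 4.81% of all brighter probe sets. The shares called were near the background. Strain values did not overlap for 1 of these 4, Pcdhb17, and for 0.846% of all probe sets.

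Pcdhb17 (1448933_at) was lower in the wild-derived strains, at 8.11 to 8.19 units, against 8.23 to 8.60 in the classical strains (median 8.42). The difference was -0.255 ± 0.0569 units (adjusted p = 0.0212). Astrocyte and endothelial markers, which correlated with Pcdhb17 over strains, were lower by median on the wild-derived arrays. The astrocyte mean was 9.548 to 9.696 units on wild-derived arrays (median 9.561) and 9.566 to 9.926 on classical arrays (median 9.776), with 2 of 10 markers called lower, Slc1a3 and Aqp4. The endothelial mean was 7.76 to 8.151 units on wild-derived arrays (median 7.906) and 7.918 to 8.172 on classical arrays (median 8.068), with 1 of 9 called lower, Abcb1a. Their part in the Pcdhb17 difference was not tested. Pcdhb16 (1441358_at) ran over 7.44 to 7.57 units in the wild-derived strains and 7.54 to 7.71 in the classical strains (difference -0.136 units, adjusted p = 0.0161), with slight overlap. Pcdh11x (1438889_at) was higher, at 7.95 to 8.18 units in the wild-derived strains and 7.75 to 8.00 in the classical strains (difference 0.221 units, adjusted p = 0.0179). Pcdh15 (1444317_at) was higher as well, at 7.69 to 7.90 units in the wild-derived strains and 7.30 to 7.89 in the classical strains (difference 0.293 ± 0.0710 units, adjusted p = 0.0303), where the overlap came from NOD/LtJ. Single arrays of the groups overlapped for all 4, and were apart for 0.0822% of all probe sets. The called probe sets of Pcdhb16, Pcdh11x and Pcdh15 were dim, at means of 7.65, 7.89 and 7.56 units, and no other probe set of these genes was called. The others differed by -0.236 (1441994_at) and -0.0404 units (1450216_at) for Pcdhb16 and by 0.196 units (1436449_at) for Pcdh11x. For Pcdh15 they went opposite ways, at 0.110 (1421503_at) and -0.0359 units (1442326_at).

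All 4 differences had the same direction within batches 5, 6 and 7. Without CAST/EiJ no member was called (limma, adjusted p = 0.0538 to 0.104 for the 4), without PWD/PhJ 1, without PWK/PhJ 5 and without WSB/EiJ 8. Several wild-derived arrays were of lower quality, with RMA outlier shares of 0.1 or more in CAST/EiJ, PWD/PhJ replicate 1, whose header also disagrees in strain and sex, and PWK/PhJ replicate 2, and without arrays of that kind 1 member was called and Pcdhb17 had a difference of -0.172 units (adjusted p = 0.365). The Actb ratio was 2.74 in CAST/EiJ, 1.89 and 2.8 in PWD/PhJ, 2.32 and 4.65 in PWK/PhJ and 1.44 and 1.32 in WSB/EiJ, beside a median of 1.34 over the series. Over 199 array columns it correlated at r = 0.485 with Pcdh11x 1438889_at and 0.453 with Pcdh15 1444317_at, and its part in their differences was not tested. Pcdh11x 1438889_at correlated at r = -0.455 over 100 strains with the mean of the oligodendrocyte markers, which was 9.139 to 9.442 units on wild-derived arrays and 9.091 to 9.973 on classical arrays. Its part in the difference was not tested.

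**Figure D4:**
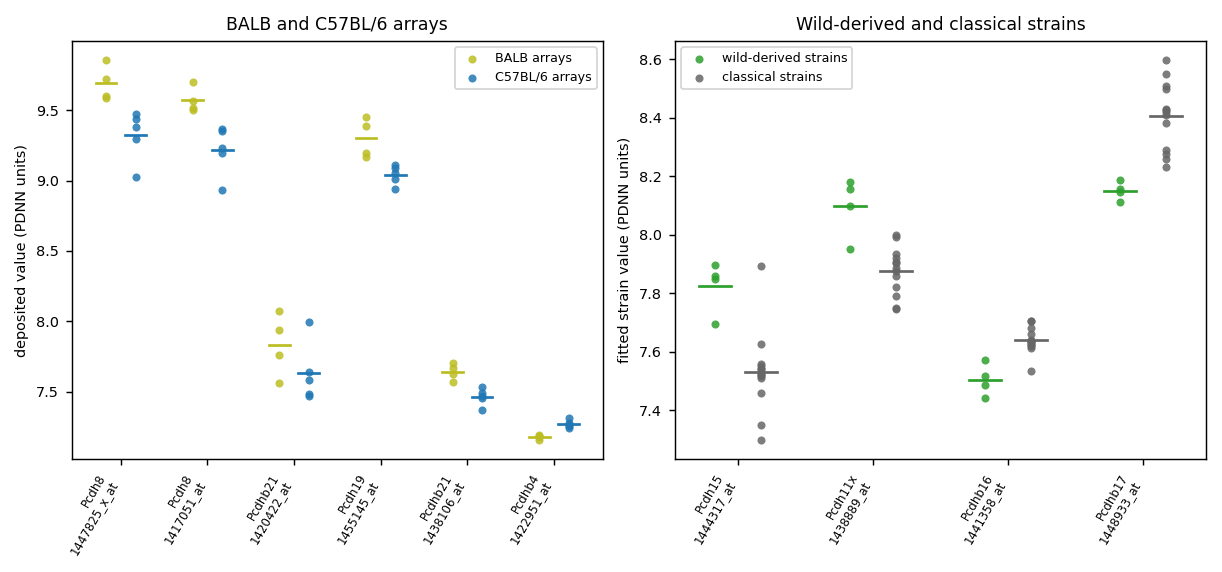
Left, deposited values (PDNN units, y axis) of the 4 BALB and 5 C57BL/6 arrays for the 6 called members, and right, fitted strain values (PDNN units) of the 4 wild-derived and 13 classical strains for the 4 called members, with bars at group means. The groups are apart for 5 members on the left, and for Pcdhb17 on the right.

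No member was called for sex (0 of 68 in limma, against 0.118% of all probe sets, 0.0444% higher and 0.0733% lower in males, and 0.17% of the brighter ones), and 7 had an unadjusted p under 0.05, against 4.15% of all. Differences between males and females ran over -0.0444 to 0.0463 units, beside SDs of BXD strain values of 0.0291 to 0.236 units over the members. The largest were of Pcdhb3, lower in males with a difference of -0.0444 ± 0.0139 units (unadjusted p = 0.00186 in limma, adjusted p = 0.751), and of the X-linked Pcdh11x (1436449_at), with a difference of 0.0463 ± 0.0157 units (limma, adjusted p = 1). The sex difference was not found to differ between the CXB and BXD panels for any member (limma interaction, smallest adjusted p = 0.827). Mean pool age gave 0 of 68 calls in limma, against 0.00222% of all probe sets, and 5 members with an unadjusted p under 0.05, against 2.55% of all.

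Clustered members, with the alpha, beta and gamma clusters pooled, did not vary together as a rule. Pairs within a single cluster were not summarised apart. Over the 100 strain values Pearson's r had a median of 0.0308 over 595 pairs of clustered probe sets, 0.0234 over 528 pairs of other probe sets and -0.00356 over 1155 pairs across these classes. Among brighter probe sets, with a mean of 8 units or more, the medians were 0.232 over 28 clustered pairs, 0.191 over 120 other pairs and 0.146 over 128 pairs across. All pairs share arrays, and within strains the brighter pairs had medians of 0.354, 0.209 and 0.231, so arrays of a strain varied together as well.

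Probe sets of the same gene were more alike, pairs of alpha probe sets left out. Their median r was 0.235 over 44 pairs, against 0.00473 over 2219 pairs of different genes, though from -0.145 to 0.961. Besides Pcdh8, high values were reached by Pcdh11x (0.84), Pcdh10 1430667_at with 1438134_at (0.805), Pcdh19 1437360_at with 1455145_at (0.716) and both Pcdh20 probe sets (0.712). The brighter Pcdh7 probe sets gave only 0.0359. Pairs of alpha probe sets, which list several symbols, ran over -0.386 to 0.697. The 3 alpha probe sets that list 14 symbols gave 0.58, 0.165 and -0.198 among themselves. Among different genes, Pcdhb17 and Pcdhb20 reached 0.802 and Pcdhb3 and Pcdhb22 0.751, all in the beta cluster. The alpha probe set 1420798_s_at reached 0.733 with Pcdh10 1430667_at and 0.727 with Pcdhb20. It also correlated at r = 0.739 with the mean of the pyramidal neuron markers. A dim group of Pcdhb1, Pcdhb6, Pcdhb19 and Pcdh15 1421503_at gave 0.78 to 0.887.

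**Figure D5:**
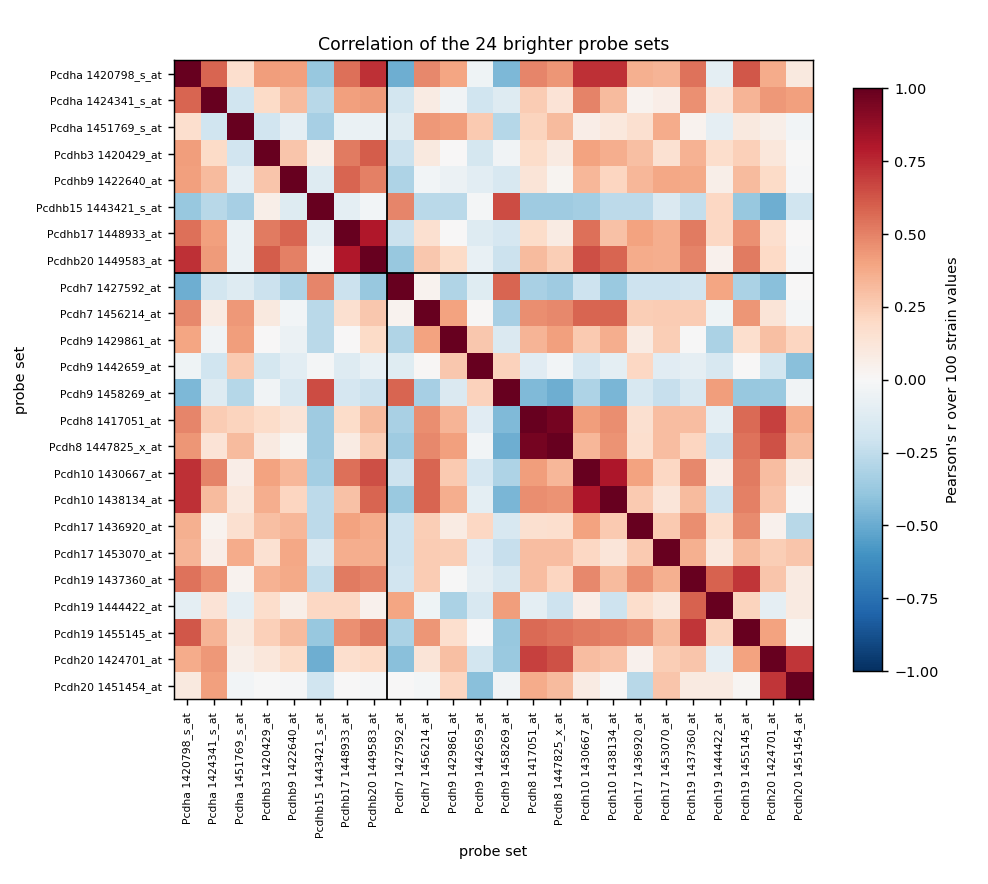
Pearson's r over 100 fitted strain values (colour scale, -1 to 1) between the 24 protocadherin probe sets with a mean of 8 units or more, clustered members first and black lines at the border between classes. The strongest values off the diagonal join probe sets of the same gene, such as the Pcdh8 pair at 0.961, and Pcdhb17 with Pcdhb20 at 0.802.

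The genes most like the 3 members with the highest intraclass correlation were sought among all probe sets with 1 symbol over 68 BXD strains. Pcdhb3 was most like Brd8 (r = 0.677), Tmco6 (0.656) and Fam13b (0.567), all 3 on its own chromosome, as were 11 of the 20 probe sets with the largest r in either direction. Pcdh20 1451454_at was most like Dgkh (0.79), Mzt1 (0.756) and Rgcc (0.709), again all 3 on its own chromosome, as were 14 of 20. In recombinant inbred strains neighbouring genes are inherited together, but distances between these genes were not looked at. The part of shared inheritance in these correlations was not tested. Pcdhb17 was most like Nap1l3 (0.716), Umad1 (0.713) and Zfp37 (0.713), none of them on its chromosome, nor were any of its 20.

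Genes that regulate or partner protocadherins and other cadherins were read through 1 probe set each, the brightest. The shares of all probe sets called, for comparison, were 8.38% in the BXD panel (12% of the brighter ones), 7.24% between DBA/2J and C57BL/6J, 5.12% between BALB and C57BL/6 strains and 3.9% between wild-derived and classical strains, and with lists this short the counts are descriptions. Of 14 regulators of the clusters, which include CTCF and cohesin genes, 1 was called in any comparison: Nipbl, the loader of cohesin, was higher in DBA/2J than in C57BL/6J by 0.626 ± 0.171 units (adjusted p = 0.00981). Of 18 partners in proteolysis and signalling, Psenen, a subunit of gamma-secretase, differed between BXD strains (SD 0.128, adjusted p = 1.36e-06) and was lower in DBA/2J than in C57BL/6J (difference -0.319 units, adjusted p = 0.0167), as was Ncstn, another subunit (-0.289 units, adjusted p = 0.0137). Cyfip2, of the WAVE complex, differed between BXD strains (SD 0.113, adjusted p = 3.65e-05), and Abi2, of the same complex, was higher in BALB than in C57BL/6 strains by 0.280 units (adjusted p = 0.0122).

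Of 18 classical cadherins and catenins, 3 differed between BXD strains, Cdh6 (SD 0.0880, adjusted p = 1.95e-10), Cdh2 (SD 0.160, adjusted p = 0.000138) and Cdh22 (SD 0.0717, adjusted p = 0.00628). Cdh6 was also lower in DBA/2J than in C57BL/6J (-0.205 units, adjusted p = 0.00223) and in BALB than in C57BL/6 strains (-0.129 units, adjusted p = 0.0288), and Cdh22 was higher in wild-derived than in classical strains (0.135 units, adjusted p = 0.0271). Of 13 large and atypical cadherins none differed between BXD strains, Fat3 was higher in DBA/2J than in C57BL/6J (0.381 units, adjusted p = 0.0246), and Celsr1 (0.20 units, adjusted p = 0.00449), Fat4 (0.356 units, adjusted p = 0.00755) and Celsr2 (0.280 units, adjusted p = 0.0290) were higher in BALB than in C57BL/6 strains. None of these 4 lists gave a call for sex, age or the CXB panel in limma.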

How the data were processed

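Hippocampal RNA was read on Affymetrix M430 2.0 arrays. The authors deposited PDNN scores, RMA scores and MAS5 scores per probe set, which the series' design text describes as adjusted per array to an average of 8 units with an SD of 2. In the PDNN table array SDs were 0.6302 to 0.7987, so its unit is taken as a score of unstated base. PDNN scores were analysed as deposited, and no value column lacked a sample (0 unmapped). Control probe sets (64) were left out, which left 45037 tested, and 34945 probe sets had 1 symbol in the platform annotation.

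The members and gene lists were chosen with earlier results of these data known. B6D2F1 replicates 2 and 3, arrays of the same RNA, were averaged and the mixed-sex BXD9 replicate 2 was left out, which gave 199 columns. Linear models in limma 3.58.1 (R 4.3.3) held strain, sex and batch, with 92 residual degrees of freedom over all arrays, 58 in the BXD panel and 10 in the CXB panel. Wild-derived and classical strains were compared on fitted strain values. Benjamini-Hochberg adjustment ran over every probe set tested, with a threshold of 0.05. Fits were tested on simulated data. Arrays read hybridization, so strain differences in probed sequence and in RNA level cannot be told apart in these files, and the number of arrays limits the precision.

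The text names every called protocadherin probe set, up to 10 clustered and 10 other a comparison, the brightest probe set of each gene outside the clusters, probe sets with several symbols, 3 alike genes for each of the 3 members with the highest intraclass correlation, and up to 4 called genes a list. Alternatives were the RMA and MAS5 scores, quantile normalization, no batch term, only the brighter probe sets (mean at least 8), dropping arrays whose RMA outlier share reached 0.1, choroid plexus markers or pool age as covariates, and arrays or strains left out in turn (20 arrays drawn in each panel). Chosen after seeing the data were 4 components as covariates, leaving out the 7 arrays with disagreeing headers, and leaving out RMA columns that best matched another array. Figures were drawn with matplotlib 3.10.9 (Python 3.11.15).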

Additional observations from a re-analysis of the deposited data

Results flagged for a closer look

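Among 26 groups of 4 to 10 samples looked at for the called members, 1 held a value far from the others. For Pcdh17 1453070_at in the F1 hybrids, B6D2F1 replicate 1 read 9.162 units, while the other 4 values were 9.413 to 9.48, a gap of 0.788 of the whole range. The value 9.413 is the mean of B6D2F1 replicates 2 and 3, arrays of the same RNA that read 9.271 and 9.554 before averaging, and 9.271 lies inside that gap. Chance gives such a value in about 1 of 20 groups.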

How the results depend on the processing

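No called difference changed direction under any setting. The protocadherin probe sets called in the BXD panel, 12 as reported, numbered 7 with RMA scores, 7 with RMA scores without the columns that best matched another array, 7 with MAS5 scores, 5 without a batch term, 6 among the brighter probe sets (mean at least 8) and 23 with 4 components. They were 9 to 12 without 1 array. In the CXB panel the 1 call was lost (0) with RMA scores with or without those columns, MAS5 scores, quantile normalization, no batch term, brighter probe sets, no outlier arrays, choroid plexus markers or pool age, 4 were called with components, and 0 to 1 without 1 array. Between DBA/2J and C57BL/6J, 10 calls became 2 with RMA scores, 5 with MAS5 scores, 5 without a batch term, 5 with brighter probe sets and 6 with components, and 5 to 10 without 1 array. Between BALB and C57BL/6 strains, 6 calls became 0 with RMA scores, 2 each with MAS5 scores, quantile normalization, no batch term, no outlier arrays or choroid plexus markers and 3 with brighter probe sets, and 0 to 11 without 1 array. Between wild-derived and classical strains, 4 calls became 1 with brighter probe sets, 1 without outlier arrays and 7 with components, and 0 to 8 without 1 strain. For sex, components gave 2 calls in place of 0. The median correlation across classes, -0.00356, was 0.0236 in RMA and 0.0193 in MAS5 scores. Counts with brighter probe sets hold fewer probe sets, and counts without an array fewer samples, and otherwise the cause was not tested. Among 197 columns of RMA scores 4 best matched another array, 3 of them headed C57BL/6J, so RMA values of comparisons with that strain rest on mismatched columns. No paired analysis was possible because replicate numbers were given in accession order and pair no samples. Single arrays per sex and strain and dim probe sets limit the precision.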
